A study of Mus musculus with 6 samples.

Results

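The genes described here encode the route by which pyruvate enters the mitochondrion and is oxidised: the pyruvate carrier, the pyruvate dehydrogenase complex with its kinases and phosphatases, the enzymes of the citric acid cycle, and complex II. The list names 30 genes, and each matched exactly 1 of the 56691 rows of the deposited table by its symbol. All 30 held enough reads to be tested. They were measured by RNA-seq in inguinal white adipose tissue, the fat pad under the skin of the groin, from 6 male C57BL/6J mice. The mice entered the experiment at 8 weeks of age and were housed for a further 8 weeks, either 4 to 6 to a cage (group housing, 3 mice) or alone (single housing, 3 mice). No altered allele and no agent is named for either group, and both were kept under ordinary temperature and light. The labels do not say whether mice of one group came from the same cage, so the p-values measure the spread between these libraries only. By its title, the series asks how isolation acts on blood glucose through sympathetic activation of this fat depot.

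Pyruvate made from glucose in the cytosol crosses the inner mitochondrial membrane through a carrier of paired subunits. The pyruvate dehydrogenase complex then converts it irreversibly to acetyl-CoA, which is why the complex is switched off by phosphorylation when fatty acids are the fuel and switched on again by phosphatases. Acetyl-CoA enters the citric acid cycle, whose dehydrogenases feed electrons to the respiratory chain. Complex II is both a cycle enzyme and a respiratory complex. White adipocytes also export citrate from the cycle for fatty acid synthesis, whereas thermogenic adipocytes run the cycle hard to make heat.

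The libraries held 21410779 to 35318376 counts. Markers of adipocytes were abundant in each, with a summed level of 8458 to 15871 FPKM over 12 genes under group housing and of 10410 to 13949 FPKM under single housing, and the labelled tissue was thus found by its markers. FPKM are counts scaled by exon length and library total. Skeletal muscle transcripts, which can enter a dissected fat pad and which come from a tissue rich in these enzymes, varied widely. Values are given in the order of libraries 1, 2 and 3 throughout. The 23 muscle markers summed to 397, 1586 and 61.9 FPKM with group housing, against 74.2, 65.3 and 4337 FPKM with single housing. All 23 had counts in all 6 libraries. Of the 21 tested, 3 were higher in single housing at an unadjusted p below 0.05, where 3.49% of all tested genes were. The log2 fold change, single minus group housing, was above 0 for 20 of the 21, with a median of 1.24. Single-housed library 3 and group-housed library 2 thus stood apart, and results are given with and without them. Genes of the mitochondrial chromosome took 6.02% to 7.53% of the counts under group housing and 9.19% to 12.1% under single housing. In bulk tissue, a change in the number of cells of a type and a change in the RNA of each cell cannot be told apart.

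Under single housing nearly all of the 30 genes were higher on average, 2 kinases and some of the cycle enzymes most of all, but none passed the test over all genes. With edgeR's quasi-likelihood test, 0 of the 30 had a Benjamini-Hochberg adjusted p below 0.05, as did 0% of the 18085 genes tested, and the smallest adjusted p among the 30 was 0.530. With an unadjusted threshold of 0.05, 12 of the 30 were higher in single housing, where 3.49% of all tested genes were, and 0 were lower, where 3.47% of all were. The 12 were Pdk2, Pdk4, Pdp2, Idh3a, Idh3b, Idh3g, Ogdh, Dlst, Sucla2, Suclg1, Fh1 and Sdha. In 16 of the 30, the 3 single-housed libraries all lay above the 3 group-housed ones on log2 CPM (counts scaled by library total with TMM composition factors), against 6.61% of all tested genes. The opposite arrangement held for 0 of the 30, against 6.78% of all. On the deposited FPKM, which carry no correction for composition, the first arrangement again held for 16 of the 30, although over all tested genes the balance then shifted from 1196 higher and 1226 lower to 879 higher and 1630 lower. The estimated log2 fold change, single minus group housing, was above 0 for 29 of the 30 genes, with a median of 0.42 against -0.012 over all tested genes. DESeq2 called 1 of the 30, Pdk4, higher, where it called 0.431% of all genes higher.

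**Figure D1:**
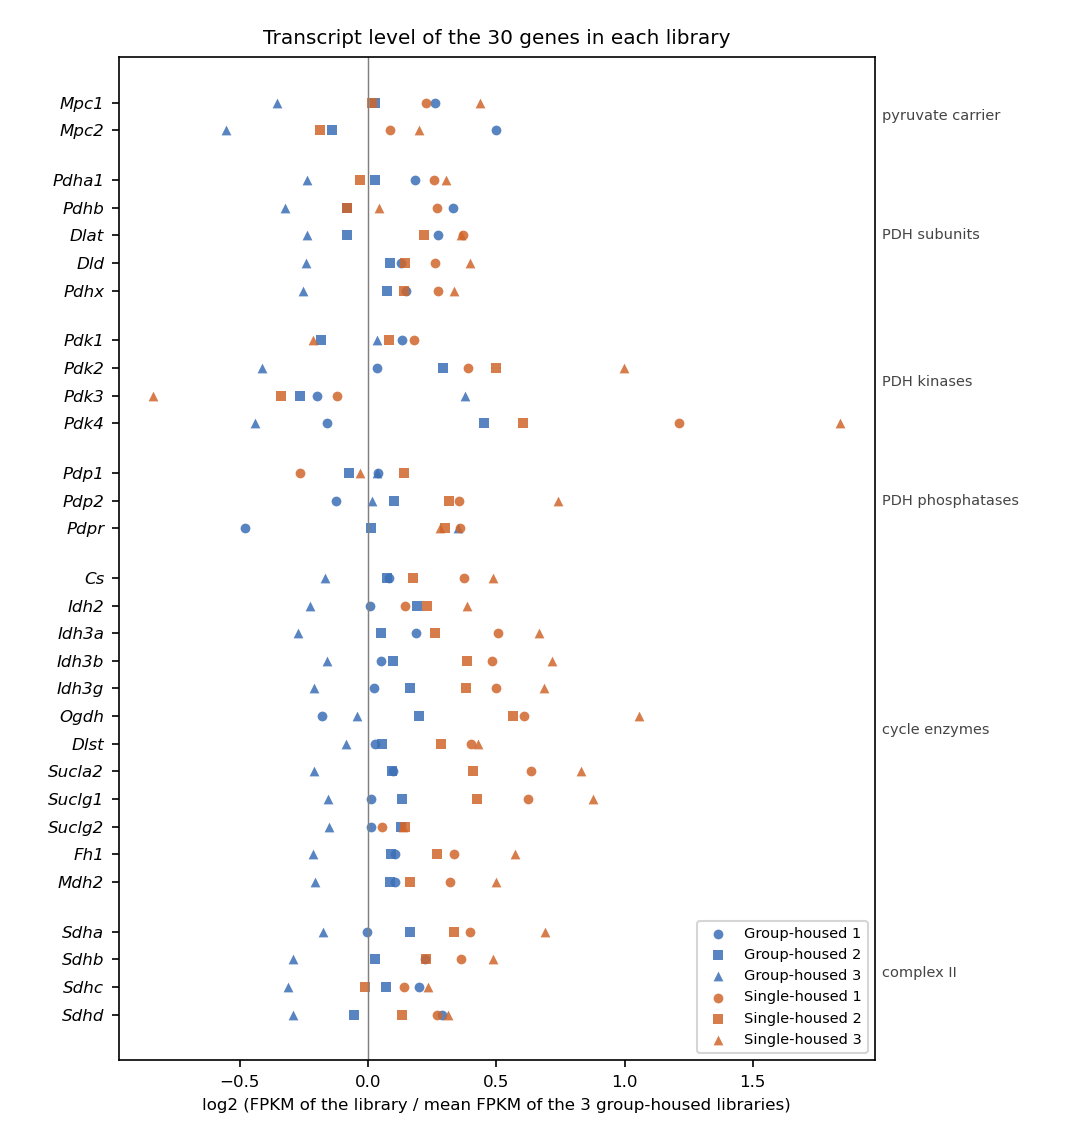
Level of each of the 30 genes in each library, as log2 of its FPKM over the mean of the 3 group-housed libraries, with genes grouped by role. In the cycle enzymes the 3 single-housed points (orange) mostly lie to the right of the group-housed points (blue), with single-housed library 3 farthest, whereas for the carrier and most pyruvate dehydrogenase subunits the colours overlap.

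The mitochondrial pyruvate carrier, Mpc1 and Mpc2, did not separate the groups. Mpc2 (ENSMUSG00000026568; mm39 chromosome 1, 165288206 to 165308783) stood at 40.8, 26.2 and 19.7 FPKM under group housing, against 30.7, 25.4 and 33.2 FPKM under single housing. The highest and the lowest value both belonged to group housing, and the log2 fold change was 0.13 ± 0.30 (SE). Mpc1 (ENSMUSG00000023861; chromosome 17, 8501736 to 8516493) stood at 74.7 ± 15.6 and 88.1 ± 12.8 FPKM (SD, n = 3 each, group housing first here and below). Its value is uncertain, since the pseudogene Mpc1-ps, whose 330 bases match the Mpc1 transcript at 99.7%, was assigned 10822 counts, 40.5% as many as Mpc1. That percentage was 39.9 ± 0.22 in the group-housed and 40.3 ± 3.18 in the single-housed libraries. No other member had annotated pseudogene copies with counts above 3.73% of its own.

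The 5 subunits of the pyruvate dehydrogenase complex overlapped between the groups on log2 CPM, and all but Dld also on FPKM. Pdha1, the catalytic E1 alpha subunit and the target of the kinases (ENSMUSG00000031299; chromosome X, 158905205 to 158921409), had the highest mean level of all 30 genes. It stood at 222, 199.6 and 166 FPKM under group housing, against 234, 192 and 242 FPKM under single housing. Single-housed library 2 was below group-housed libraries 1 and 2, and the log2 fold change was 0.27 ± 0.21. Pdhb, the E1 beta subunit, stood at 128 ± 29.9 and 135 ± 16.8 FPKM. Dlat, the E2 core that carries the acetyl group, was at 67.7, 52.9 and 47.5 FPKM under group housing and at 72.4, 65.1 and 72.1 FPKM under single housing, with the largest log2 fold change of the subunits (0.41 ± 0.19). Only group-housed library 1 reached into the single-housed range. Dld, the E3 subunit shared with other 2-oxoacid dehydrogenases, was at 114, 110.7 and 88.3 FPKM under group housing and at 125, 115 and 138 FPKM under single housing. All 3 single-housed values of Dld were higher on this scale. Pdhx, which tethers E3 to the core, stood at 19.8 ± 2.83 and 23.6 ± 1.61 FPKM. None of the 5 subunits reached an unadjusted p below 0.05.

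The kinases, which phosphorylate Pdha1 and switch the complex off, had unlike differences between the groups. Pdk4, the isoform known to be induced by fasting and fatty acids (ENSMUSG00000019577; chromosome 6, 5483351 to 5496309), had the largest fold change of the 30 genes. Its level was 42.1, 64.6 and 34.8 FPKM under group housing, against 109, 71.7 and 169 FPKM under single housing. All single-housed values lay above all group-housed values, although single-housed library 2 exceeded group-housed library 2 only slightly. The log2 fold change was 1.41 ± 0.42, a 2.65-fold difference, with an edgeR adjusted p of 0.588. DESeq2 gave an adjusted p of 0.0458. Without single-housed library 3, the library with the most muscle transcripts, the log2 fold change was 0.96.

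Pdk2, a widely expressed isoform (ENSMUSG00000038967; chromosome 11, 94917084 to 94932180), was at 15.6, 18.6 and 11.4 FPKM under group housing and at 19.9, 21.4 and 30.3 FPKM under single housing. The groups did not overlap, and the log2 fold change was 0.75 ± 0.28 (edgeR adjusted p = 0.680). It was 0.46 without single-housed library 3. Pdk1, an isoform induced by HIF-1 under low oxygen, stood at 19.5 ± 2.13 and 19.8 ± 2.73 FPKM with overlapping groups. Pdk3 was the one member with a negative estimate. It was at 4.39, 4.19 and 6.55 FPKM, against 4.63, 3.98 and 2.82 FPKM, a log2 fold change of -0.32 ± 0.21 with overlapping groups.

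The makeup of the kinase pool follows from these values. Pdk4 made up 50.5%, 61.8% and 47.9% of the summed kinase FPKM in the group-housed libraries and 70.1%, 60.9% and 77.2% in the single-housed ones, so that single-housed library 2 and group-housed library 2 overlapped. Summed kinase FPKM per Pdha1 FPKM was 0.375, 0.524 and 0.438 under group housing and 0.666, 0.614 and 0.906 under single housing. This ratio, which does not depend on how libraries are scaled, separated the groups. No p is attached to it, since it combines members that were chosen with earlier results known.

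**Figure D2:**
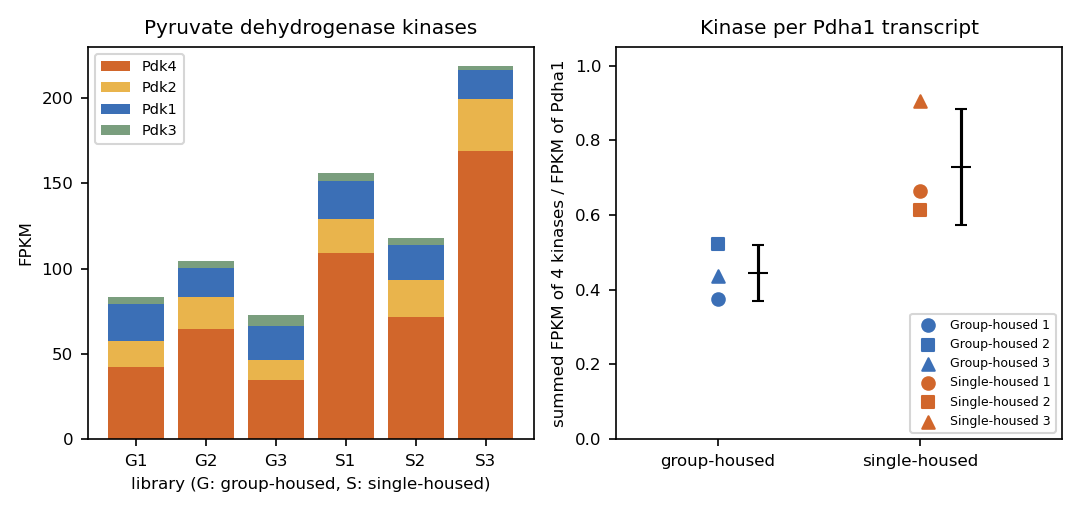
Left, FPKM of the 4 pyruvate dehydrogenase kinases stacked in each library; right, their sum divided by the FPKM of Pdha1, with the mean and SD of 3 libraries beside the points. Pdk4 accounts for most of the difference in bar height, and the 3 single-housed ratios (0.614 to 0.906) lie above the 3 group-housed ratios (0.375 to 0.524).

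The phosphatases, which reactivate the complex, were expressed at low levels. Pdp2 (ENSMUSG00000048371; chromosome 8, 105318083 to 105325658) stood at 5.45, 6.38 and 6.02 FPKM under group housing, against 7.61, 7.41 and 9.95 FPKM under single housing. All 3 single-housed values were higher, on average by 0.58 ± 0.19 on the log2 scale (edgeR adjusted p = 0.612). Pdp1, the other catalytic subunit, stood at 4.07 ± 0.18 and 3.95 ± 0.55 FPKM. Its log2 fold change was 0.046 ± 0.14 and turned to -0.045 with scaling by library totals. Pdpr, the regulatory subunit, was at 7.07 ± 1.97 and 8.78 ± 0.25 FPKM. Its groups were apart on log2 CPM but not on FPKM, and it overlaps 9430091E24Rik on the opposite strand, which held 21.4% as many counts. Summed kinase FPKM over the summed FPKM of Pdp1 and Pdp2 was 8.66 ± 1.53 and 13.3 ± 3.02, with overlapping groups.

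Among the 12 cycle enzymes, 8 were higher in single housing at an unadjusted p below 0.05, where 3.49% of all tested genes were. In 10 of the 12 the single-housed libraries all lay above the group-housed ones on log2 CPM, against 6.61% of all tested genes. The median log2 fold change of the 12 was 0.53, against 0.34 for the 5 pyruvate dehydrogenase subunits. Cs, citrate synthase, which joins acetyl-CoA to oxaloacetate (ENSMUSG00000005683; chromosome 10, 128173603 to 128198348), stood at 101, 100.4 and 84.9 FPKM under group housing and at 124, 108 and 134 FPKM under single housing. The groups did not overlap, and the log2 difference was 0.44 ± 0.19 (edgeR adjusted p = 0.724). The 3 subunits of the NAD-dependent isocitrate dehydrogenase, a regulated enzyme of the cycle, had similar differences. The catalytic subunit Idh3a was at 81.6, 74.3 and 59.4 FPKM and at 102, 86.0 and 114 FPKM. Idh3b was at 60.3, 62.3 and 52.0 FPKM and at 81.4, 76.0 and 95.8 FPKM, and Idh3g at 65.4, 72.0 and 55.6 FPKM and at 90.8, 83.9 and 103 FPKM. In each of the 3 the lowest single-housed library, number 2, was above the highest group-housed one. Their log2 fold changes were 0.58 ± 0.22, 0.63 ± 0.19 and 0.62 ± 0.20. Idh3b abuts Nop56 on the opposite strand, with 5 shared bases, and Nop56 held 35.1% as many counts. Idh2, the NADP-dependent mitochondrial enzyme, which supplies reducing power, stood at 31.3 ± 4.46 and 37.4 ± 3.19 FPKM with overlapping groups and a log2 fold change of 0.34 ± 0.19.

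In the steps from 2-oxoglutarate to succinate, Ogdh, Suclg1 and Sucla2 had the largest log2 fold changes of the cycle members. Dlst (0.46) and Suclg2 (0.20), of the same steps, were below the Idh3 subunits. Ogdh, the E1 subunit of the 2-oxoglutarate dehydrogenase complex (ENSMUSG00000020456; chromosome 11, 6241633 to 6306642), was at 55.3, 72.0 and 60.9 FPKM under group housing, against 95.7, 92.8 and 131 FPKM under single housing. The single-housed libraries were all higher, and the log2 fold change was 0.86 ± 0.24, a 1.81-fold difference (edgeR adjusted p = 0.546). Its partner Dlst, the E2 subunit, was at 27.2, 27.7 and 25.1 FPKM and at 35.2, 32.5 and 35.95 FPKM. The groups did not overlap here either, and the mean difference was 0.46 ± 0.15 on the log2 scale (edgeR adjusted p = 0.618).

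Succinyl-CoA ligase pairs the common alpha subunit Suclg1 with either Sucla2, which makes the enzyme form ATP, or Suclg2, which makes it form GTP. Sucla2 (ENSMUSG00000022110; chromosome 14, 73762759 to 73833582) was at 64.2, 63.9 and 51.8 FPKM under group housing and at 93.0, 79.5 and 107 FPKM under single housing. Suclg1 (ENSMUSG00000052738; chromosome 6, 73225365 to 73253894) was at 25.01, 27.2 and 22.3 FPKM and at 38.3, 33.4 and 45.6 FPKM. Both separated the groups, with log2 fold changes of 0.73 ± 0.21 and 0.75 ± 0.20, and Suclg1 had the smallest p of the 30 genes (edgeR adjusted p = 0.530). Suclg2 (ENSMUSG00000061838; chromosome 6, 95449990 to 95695781) was at 21.5, 23.3 and 19.1 FPKM and at 22.1, 23.6 and 23.4 FPKM. Here the groups overlapped, and the log2 fold change was 0.20 ± 0.15. The ratio of Sucla2 to Suclg2 within a library was 2.99, 2.75 and 2.71 under group housing and 4.21, 3.38 and 4.56 under single housing. All 3 single-housed ratios were higher, a description to which no test is attached.

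**Figure D3:**
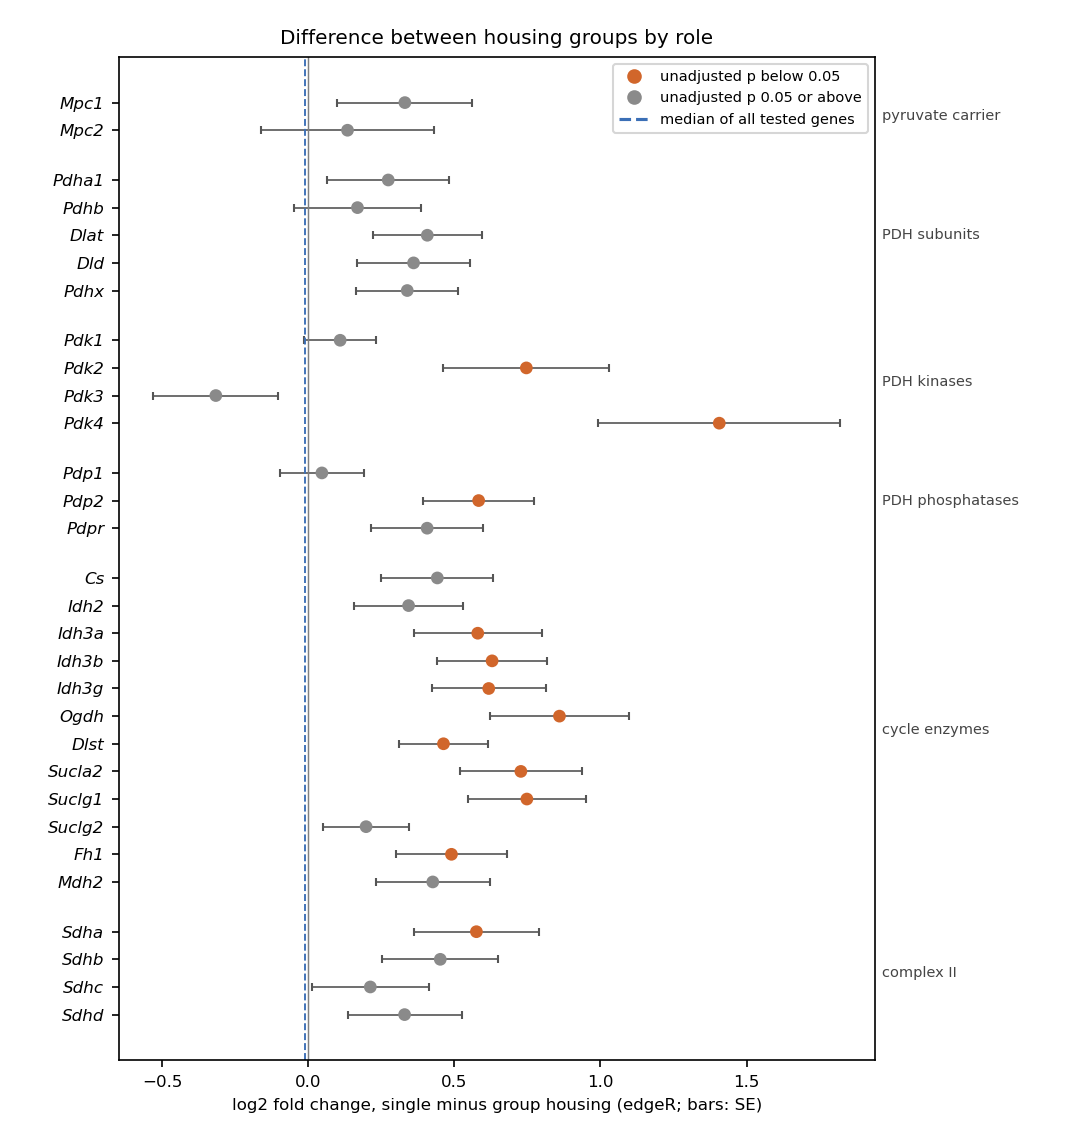
Log2 fold change, single minus group housing, of the 30 genes, with its standard error, from edgeR; orange marks an unadjusted p below 0.05 and the dashed line the median of all tested genes (-0.012). The cycle enzymes from Idh3a to Suclg1 form a run of orange points between 0.46 and 0.86, Suclg2 (0.20) stands out from them, and Pdk4 (1.41) is highest.

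Fh1, fumarate hydratase, was at 40.3, 39.8 and 32.3 FPKM under group housing, against 47.2, 45.1 and 55.7 FPKM under single housing. All single-housed values were higher, on average by 0.49 ± 0.19 on the log2 scale (edgeR adjusted p = 0.688), but Fh1 overlaps Kmo on the opposite strand, which held 28.2% as many counts. Mdh2, the mitochondrial malate dehydrogenase that regenerates oxaloacetate, stood at 69.7 ± 8.13 and 87.8 ± 10.3 FPKM, also without overlap (edgeR adjusted p = 0.745). The subunits of complex II, succinate dehydrogenase, separated the groups to unlike degrees. Sdha, the flavoprotein that oxidises succinate (ENSMUSG00000021577; chromosome 13, 74470373 to 74498399), was at 155, 174 and 138 FPKM and at 206, 197 and 252 FPKM, without overlap. Its log2 fold change was 0.58 ± 0.21 (edgeR adjusted p = 0.669). Sdhb, the iron-sulphur subunit, stood at 69.1 ± 12.2 and 88.8 ± 7.96 FPKM, with groups that just failed to overlap (80.7 FPKM in group-housed library 1 against 80.9 FPKM in single-housed library 2). The membrane anchors Sdhc (51.4 ± 9.03 and 56.0 ± 4.74 FPKM) and Sdhd (133 ± 27.1 and 157 ± 10.1 FPKM) overlapped. The ratio of Sdha to Sdhc was 2.64, 3.23 and 3.34 under group housing and 3.64, 3.86 and 4.16 under single housing, higher in all 3 single-housed libraries. It sets a gene whose groups were apart against one whose groups overlapped, and no test is attached to it. The ratios of Idh3a to Idh2 and of Pdha1 to Pdhb overlapped between the groups.

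Since many of these genes were higher side by side, their promoters were read for sites of regulators known from mitochondrial genes. RefSeq windows of build GRCm38.p6, from 250 bases before to 50 after each annotated start, were at hand for 27 of the 30 genes. Each of 3 motifs was searched on both strands: the oestrogen-related receptor element TCAAGGTCA, the core of the NRF1 site CGCATGCG, and the cyclic AMP response element TGACGTCA. No member's window held more than 1 of the motifs. The cyclic AMP element was in 3 of the 27 genes (Mdh2, Ogdh and Pdpr) and in 2.03% of all 27025 genes with a window, the NRF1 core in 1 (Ogdh) and 2.07%, and the receptor element in 1 (Sdhd) and 0.466%. A gene counted when any of its windows matched, and Ogdh has several windows, which gives it more room for a match. Of all 32851 windows, 1.79%, 1.87% and 0.423% held these motifs in turn. No match was found in the window of Pdk4. The 4 windows below are shown as examples of a match in a cycle enzyme or complex II, with 1 window for each gene and motif, and capitals mark the match. For Ogdh, the cycle member with the largest difference, the cyclic AMP element begins 60 bases before the first start shown, and 51 and 113 bases before neighbouring annotated starts. The NRF1 core begins 14 bases before the second start shown and 35 before a neighbouring one. In Mdh2 the cyclic AMP element begins 127 bases before the start, and in Sdhd the receptor element lies on the reverse strand from 36 bases after it. A match is a run of letters and does not show that a factor binds.
Ogdh, upstream start, chr11:6291356-6291655, plus strand: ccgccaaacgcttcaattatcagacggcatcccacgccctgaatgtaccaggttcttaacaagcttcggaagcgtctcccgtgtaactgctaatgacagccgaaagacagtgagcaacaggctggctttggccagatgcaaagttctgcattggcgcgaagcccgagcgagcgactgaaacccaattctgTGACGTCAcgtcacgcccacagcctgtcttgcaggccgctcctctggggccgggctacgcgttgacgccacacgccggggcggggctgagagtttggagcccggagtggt
Ogdh, downstream start, chr11:6292308-6292607, plus strand: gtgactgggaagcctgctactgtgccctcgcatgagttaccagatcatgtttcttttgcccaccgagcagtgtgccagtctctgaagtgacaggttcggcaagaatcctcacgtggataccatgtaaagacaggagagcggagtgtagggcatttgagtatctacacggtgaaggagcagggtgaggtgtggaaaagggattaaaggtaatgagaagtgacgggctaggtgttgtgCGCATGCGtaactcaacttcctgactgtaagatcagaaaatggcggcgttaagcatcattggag
Mdh2, chr5:135778399-135778698, plus strand: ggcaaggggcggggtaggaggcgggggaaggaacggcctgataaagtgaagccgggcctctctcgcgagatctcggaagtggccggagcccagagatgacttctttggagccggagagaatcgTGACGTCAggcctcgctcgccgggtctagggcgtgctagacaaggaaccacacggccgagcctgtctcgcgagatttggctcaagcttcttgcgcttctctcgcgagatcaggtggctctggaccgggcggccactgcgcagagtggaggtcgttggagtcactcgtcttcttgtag
Sdhd, chr9:50603800-50604099, minus strand: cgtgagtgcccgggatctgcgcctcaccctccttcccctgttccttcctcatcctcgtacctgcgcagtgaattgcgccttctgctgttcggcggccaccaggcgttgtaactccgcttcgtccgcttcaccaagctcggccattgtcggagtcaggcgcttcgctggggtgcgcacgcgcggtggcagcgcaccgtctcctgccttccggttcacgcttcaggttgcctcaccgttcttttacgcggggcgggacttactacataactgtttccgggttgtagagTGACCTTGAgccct

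Genes that feed, drain or build the cycle were counted in the same way, beside the 3.49% of all tested genes that were higher. Of 25 enzymes and carriers of exchange with the cycle, 24 were tested, and 2 were higher and 0 lower at an unadjusted p below 0.05. Their median log2 fold change was 0.078. One of the 2 was Ldhb, the lactate dehydrogenase subunit of oxidative tissues, at 38.4, 41.4 and 31.4 FPKM and at 64.0, 55.6 and 68.1 FPKM (log2 fold change 0.84 ± 0.19, edgeR adjusted p = 0.400). Me3, a mitochondrial malic enzyme and next by p, was barely expressed, at 0.11 ± 0.05 and 0.23 ± 0.14 FPKM.

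Of 13 genes for lipoyl attachment, iron-sulphur cluster supply and complex II assembly, 1 was higher and 0 lower at an unadjusted p below 0.05, with a median log2 fold change of 0.17. That one was Iba57, an iron-sulphur assembly factor, at 1.64 ± 0.08 and 2.06 ± 0.12 FPKM. Lipt1, a lipoyl transferase that overlaps Mitd1, which held 199% as many counts (5.92 ± 0.77 and 7.42 ± 1.04 FPKM), and Isca1, another iron-sulphur assembly factor (12.9 ± 1.92 and 15.5 ± 1.84 FPKM), followed by p. Of 14 transcriptional regulators linked to these genes, 13 were tested, and 5 were higher and 0 lower at that threshold, with a median log2 fold change of 0.28. Esrrg, an oestrogen-related receptor of oxidative tissues, was at 0.60, 0.57 and 0.62 FPKM and at 1.52, 1.24 and 0.82 FPKM. Its groups did not overlap, but unlike Pdk4 it was lowest among the single-housed libraries in number 3 (log2 fold change 1.08 ± 0.23, edgeR adjusted p = 0.359, DESeq2 adjusted p = 0.00352). Ppara, the fatty-acid-sensing receptor known to induce Pdk4, was at 1.83, 2.62 and 2.17 FPKM and at 4.60, 3.29 and 6.46 FPKM. Its log2 fold change was 1.22 ± 0.32 (edgeR adjusted p = 0.482, DESeq2 adjusted p = 0.0311). Among the single-housed libraries it was highest in number 3 and lowest in number 2, as were Pdk4, Ogdh, Cs and the muscle marker sum. Other members, such as Mpc1, Pdha1, Idh3a and Suclg1, also had this order, whereas Pdk2 and Pdhb did not. Under group housing the orders of Ppara and Pdk4 differed. Esrra was at 10.3 ± 1.00 and 13.2 ± 0.70 FPKM and overlaps Trmt112, which held 48% as many counts, by 73 bases.

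Single-housed library 3 had the highest FPKM of the 6 for 22 of the 30 genes, and it was also the library with the most muscle transcripts. The 22 included Pdk4, Pdk2, Pdp2, Ogdh, the Idh3 subunits, Sucla2, Suclg1 and Sdha. They also included genes with overlapping groups, such as Pdha1, Idh2, Sdhc and Sdhd. Among the group-housed libraries, number 2 had the most muscle transcripts. It was the highest of that group for Pdk4, Pdk2, Pdp2, Ogdh, Idh2, Idh3b, Idh3g, Suclg1 and Sdha. Idh3a, Sucla2, Pdha1, Sdhc and Sdhd were highest in number 1 of that group. Single-housed libraries 1 and 2 had muscle marker sums (74.2 and 65.3 FPKM) below those of group-housed libraries 1 and 2 (397 and 1586 FPKM) and close to that of group-housed library 3 (61.9 FPKM). In Pdk4, Pdk2, Pdp2, Ogdh, the Idh3 subunits, Sucla2, Suclg1 and Sdha, libraries 1 and 2 stood above all 3 group-housed libraries. These genes are among those whose groups did not overlap, so that position follows from their choice. The part of muscle in the values was not tested. Without single-housed library 3 the median log2 fold change of the 30 genes was 0.31, and 8 were higher at an unadjusted p below 0.05, where 2.05% of all genes were. Without group-housed library 3, the lowest library for 24 of the 30 genes in FPKM, those values were 0.30 and 6, with 1.704% of all genes. Without single-housed library 3 and group-housed library 2 together the median was 0.37, and 12 were higher, where 6.08% of all genes were. With the muscle marker level as a covariate, edgeR called 14 of the 30 higher at an adjusted p below 0.05, where it called 2.53% of all genes higher. The 14 were Pdk2, Pdk4, Pdp2, Cs, Idh3a, Idh3b, Idh3g, Ogdh, Dlst, Sucla2, Suclg1, Fh1, Mdh2 and Sdha. With the level of B and plasma cell markers as a covariate, it called 8 of the 30 higher, where it called 0.763% of all. Those markers summed to 644, 454 and 774 FPKM under group housing and to 633, 617 and 244 FPKM under single housing. The inguinal pad surrounds a lymph node. Single-housed library 3 and group-housed library 2 were the lowest in these markers and the highest in muscle markers. The 2 covariates thus varied together over the libraries, and their fits are not separate checks.

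**Figure D4:**
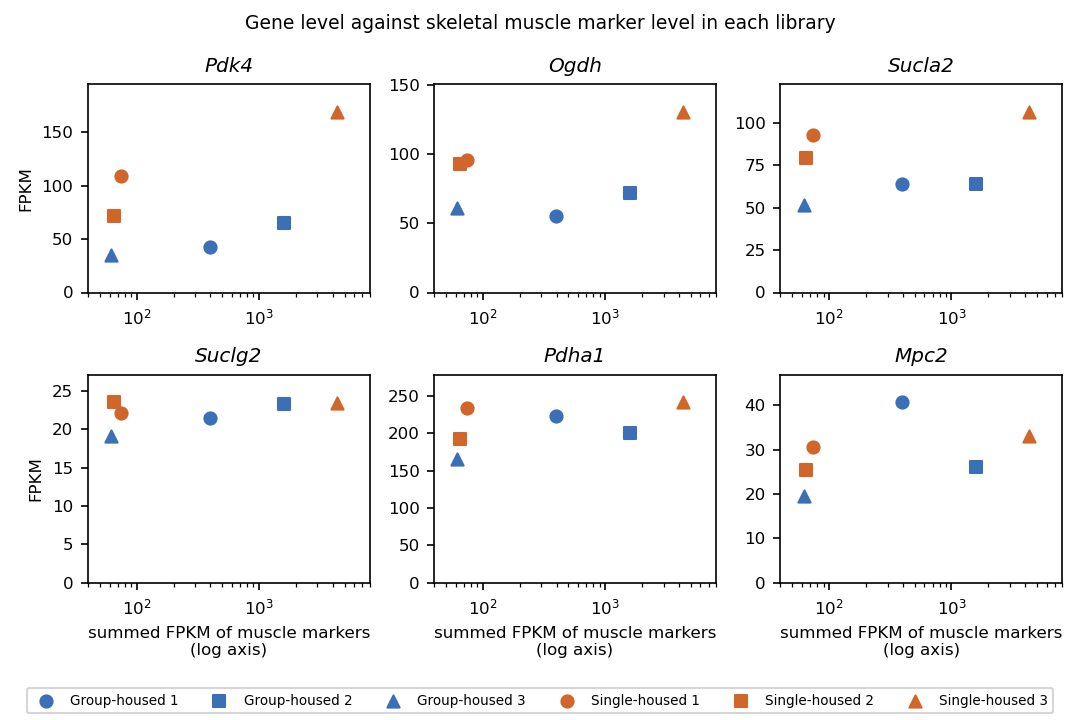
FPKM of 6 genes in each library against the summed FPKM of 23 skeletal muscle markers (log axis). Single-housed libraries 1 and 2 and group-housed library 3 lie at the left (61.9 to 74.2 FPKM of muscle markers); for Pdk4, Ogdh and Sucla2 all single-housed points stand above all group-housed ones, whereas for Suclg2, Pdha1 and Mpc2 the groups are mixed.

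**Figure D5:**
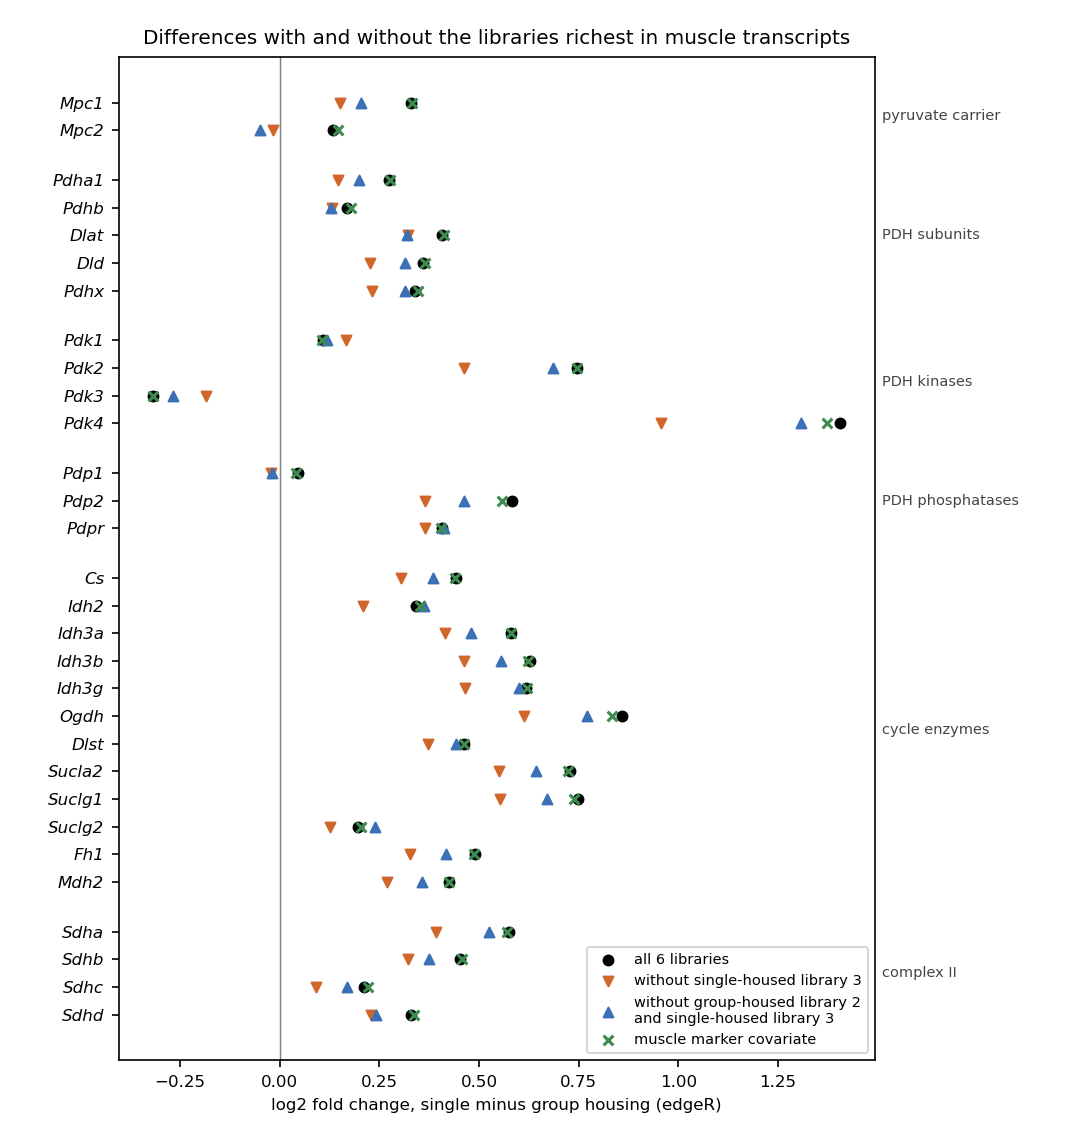
Log2 fold change of the 30 genes with all 6 libraries, without single-housed library 3, without that library and group-housed library 2, and with the muscle marker level as a covariate. Leaving out single-housed library 3 moves most points toward 0 (Pdk4 from 1.41 to 0.96), and the points of Mpc2 and Pdp1 cross it.

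Markers of other cells also differed between the groups. Of 10 thermogenic adipocyte markers, 8 were higher at an unadjusted p below 0.05. Their summed level was 424, 401 and 311 FPKM under group housing and 892, 688 and 1067 FPKM under single housing. The largest sum was that of single-housed library 3, which also held the most muscle transcripts, and the part of muscle in it was not tested. Of 12 macrophage markers, 7 were lower at that threshold, with sums of 939 to 1389 FPKM and 659 to 963 FPKM. Of 8 endothelial markers, 3 were higher at that threshold. Of all tested genes, 3.49% were higher and 3.47% lower at the same threshold. No marker on any of these lists was at 0 in any library. The part of these cell types in the values of the 30 genes was not tested.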

How the data were processed

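RNA-seq was made from inguinal fat, with 3 mice kept in groups and 3 kept alone. The authors deposited raw read counts and FPKM per gene, per the file headers, in 1 table that also holds 24 columns of other samples, which were not used. The deposited FPKM equalled count over exon length over library total for 100% of values (tolerance 0.0051). The genome build was mm39, per the submitters' processing notes. For the aligner, counter, annotation and strand setting, the sources used here give nothing. The 2639 rows with a gene ID but no symbol held 0.118% to 0.171% of counts and were kept in the tests.

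Counts were tested with edgeR 4.0.16 (quasi-likelihood test, TMM factors, filterByExpr, 18085 genes, Benjamini-Hochberg adjustment) in R 4.3.3, with DESeq2 1.42.0 and limma 3.58.1 on log2(FPKM + 1) as alternatives. Depth was 21410779 to 35318376 counts. A mean ± SD is over 3 libraries of FPKM, and a fold change carries its standard error. Libraries of a group differed by more than sampling noise (chi-square per degree of freedom 9.48 to 112), and each was counted as 1 replicate. The code was tested on simulated data. The members, gene lists and alternatives were chosen with earlier results of these data known. The text names all 30 members and the 3 genes of smallest p in each of 3 related lists, of which 1 gene is not reported here. Pseudogene copies were transcripts matching a member at 90% identity or more over at least 200 bases.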

Additional observations from a re-analysis of the deposited data

How the results depend on the processing

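With edgeR, 0 genes were called at an adjusted p below 0.05, while 631 genes were higher and 628 lower at an unadjusted p below 0.05. The count of called genes was 207 with DESeq2, 53 without the filter on low counts, 22 without both libraries rich in muscle transcripts, 1027 with the muscle covariate and 391 with the B and plasma cell covariate; of the 30 members, 1, 0, 0, 14 and 8 were among them. It was 0 with RLE factors, library totals, limma and each library left out. The muscle covariate gave 23 members higher and 1 lower (Pdk3) at an unadjusted p below 0.05, where 10.2% of all genes were higher and 12.2% lower, and leaving out 1 library gave 6 to 15 higher, where 1.704% to 5.72% of all genes were. Scaling by library totals moved the counts over all genes at that threshold to 472 higher and 823 lower. Libraries of the same replicate number did not deviate together from their group means (correlations of deviations 0.12, -0.56 and -0.70 for numbers 1, 2 and 3). The largest correlation, 0.72, joined group-housed library 2 and single-housed library 3, the libraries richest in muscle transcripts. The check therefore cannot exclude a shared day or litter. A replicate block gave 0 called genes and 5 members higher, where 1.39% of all genes were. Pdp1 changed sign, to -0.045 with library totals, -0.040 and -0.050 with limma on log2(FPKM + 1) and log2(FPKM + 0.1), -0.040 without the FPKM filter, -0.019 without both libraries and -0.0085 with the B and plasma cell covariate, and lay between -0.022 and 0.17 with 1 library left out. Mpc2 was at -0.049 without both libraries and between -0.10 and 0.46 with 1 left out. Of 642 values for 38 genes over 17 alternatives, 597 kept direction and side of the threshold, 34 newly passed it and 11 changed sign. The causes were not tested. Depth limits the genes of low level most: Me3 rests on 389 counts and Esrrg on 914 over the 6 libraries.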
